A study of Mus musculus with 12 samples.

Results

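Sorted distal convoluted tubules were compared with total renal tubules of the same mice, to ask which transcripts were enriched in the sorted segment and which of them came near the largest enrichment that its dilution in the total could give. The comparison took 8 of the 12 arrays of the series, the 4 labelled EGFP+ and the 4 labelled ALL. The EGFP+ fraction held fluorescent distal convoluted tubules that a large-object flow sorter (COPAS) had picked from a renal tubule suspension, and the ALL fraction was the total passed through the same sorter. Each of 4 mice, females 1 and 3 and males 2 and 4, gave 1 array of each fraction, so the comparison was paired by mouse. No treatment was labelled. The labels name neither the promoter behind EGFP nor strain and age. The EGFP- fraction of the same mice entered the estimate of the spread, the filter on dim probes and the choice of each gene's probe. It also served to choose a second reference set of genes, and in descriptive ratios and counts that name it.

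The distal convoluted tubule (DCT) is a short stretch of the nephron between the macula densa and the connecting tubule. It takes up sodium and chloride through the thiazide-sensitive cotransporter NCC, encoded by Slc12a3, and it sets the final excretion of magnesium through the channel Trpm6. WNK kinases and the kinase SPAK (Stk39) switch NCC on by phosphorylation, and Klhl3 marks WNK kinases for degradation. DCT cells are also a part of any total tubule suspension. A transcript found only in them is therefore present in the total at the share of RNA that DCT tubules contribute, and its excess in a pure DCT fraction over the total can reach the inverse of that share and no more.

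All levels below are log2 signals of 1-colour Agilent arrays relative to the upper quartile (the 75th percentile) of the same array, and a difference is EGFP+ minus ALL on that scale. Levels were compared within a gene and not between genes. Probes well above background made up 55.0% to 58.7% of the EGFP+ arrays and 54.3% to 66.0% of the ALL arrays, and the upper quartile lay between 922 and 2270 intensity units. The total of mouse 4 was the dimmest array. The EGFP+ and ALL arrays of mice 1, 3 and 4 shared a slide, and those of mouse 2 did not. The deposited sources conflict on the labels. In the authors' deposited value table, all 12 columns matched a scanner array of another fraction of the same mouse: columns named for EGFP+ held the ALL array, those for ALL the EGFP- array, and those for EGFP- the EGFP+ array. Fractions are named here as the scanner files label them, and every direction rests on that choice. The number of arrays limits the precision, and every p-value below rests on 4 mice. Except in the test of sex, the spread was estimated over all 12 arrays, EGFP- included. It is not the spread of the 4 EGFP+ minus ALL differences alone, and noise of a gene dim in EGFP- enters its standard error.

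The sequences shown first belong to genes on which the results turn: the 60-base array probe that measured Slc12a3 (mm8, chr8:97240865-97240924, a position given by the array file), and the 250 bases before the start of Slc12a3 (chr8:94328958-94329207, plus strand), Trpm6 (chr19:18749480-18749729, plus strand) and Pvalb (chr15:78206401-78206650, minus strand) from RefSeq in build GRCm38.p6. Capitals mark the AP-2 motif GCCNNNGGC, chosen because the AP-2 factor gene Tfap2b was among the enriched genes.
Slc12a3 probe: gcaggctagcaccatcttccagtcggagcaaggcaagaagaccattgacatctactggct
Slc12a3 promoter: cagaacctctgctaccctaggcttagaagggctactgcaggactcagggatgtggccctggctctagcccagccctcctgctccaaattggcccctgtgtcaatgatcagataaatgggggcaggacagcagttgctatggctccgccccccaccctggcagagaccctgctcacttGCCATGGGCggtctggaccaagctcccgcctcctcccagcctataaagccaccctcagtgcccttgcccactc
Trpm6 promoter: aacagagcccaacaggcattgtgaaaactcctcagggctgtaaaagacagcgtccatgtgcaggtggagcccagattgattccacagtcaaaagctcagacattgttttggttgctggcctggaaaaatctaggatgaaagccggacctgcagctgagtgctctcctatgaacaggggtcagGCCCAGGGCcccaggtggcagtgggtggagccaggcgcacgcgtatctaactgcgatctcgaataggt
Pvalb promoter: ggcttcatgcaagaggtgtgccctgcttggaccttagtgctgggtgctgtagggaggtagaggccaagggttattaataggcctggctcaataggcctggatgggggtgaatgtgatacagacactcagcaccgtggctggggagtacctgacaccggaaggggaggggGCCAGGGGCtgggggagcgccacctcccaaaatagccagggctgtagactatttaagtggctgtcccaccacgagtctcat

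Slc12a3, the gene that defines the segment, was the ground for following the scanner labels, so its direction is no independent check of them. Its level in mice 1 to 4 was 7.31, 7.35, 7.77 and 7.65 in EGFP+ and 4.69, 4.52, 4.81 and 4.03 in ALL. The fractions did not overlap, and the order held in every mouse. The difference was 3.01 ± 0.25 (SE, n = 4 mice), or 8.06-fold, with a 95% confidence interval of 2.43 to 3.59 on the log2 scale (limma, adjusted p = 8.3e-06). The fold was 6.14 in mouse 1, 7.12 in mouse 2, 7.83 in mouse 3 and 12.3 in mouse 4. Read the other way, the total held 16.3%, 14.0%, 12.8% and 8.12% of the Slc12a3 level of the sorted tubules. In these bulk samples, fewer cells of a type and less RNA per cell cannot be told apart. The podocyte marker Ptpro, a receptor phosphatase of glomerular cells, went the other way and is described with the depleted genes.

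A second reference came from 12 genes that were well above background on all 4 EGFP+ and all 4 ALL arrays and on no EGFP- array, by any probe. They were chosen by detection, so their values are a description. Their median difference was 3.29, 3.75, 3.13 and 3.89 in mice 1 to 4, a mean of 11.4-fold, which put the total at 10.2%, 7.42%, 11.4% and 6.76% of EGFP+. That median lay above the Slc12a3 difference here, but below it with the normexp background. The members ranged from Sox9 (3.84), Ank2 (3.81), Grin3a (3.75) and Hmgcll1 (3.73), through Mapk10 (3.53), Pvalb (3.53) and Chst13 (3.43), to Arhgdig (3.02), Etv4 (2.68) and an unnamed probe (0.79). The total was then set against EGFP- for 418 genes that no probe found above background in EGFP+. The median ratio of ALL to EGFP- was 0.891, 0.913, 0.878 and 0.877 in mice 1 to 4. Added to the median ratio of ALL to EGFP+ of the first set, it gave 0.993, 0.987, 0.992 and 0.945. With the Slc12a3 ratio in place of that set, the sums were 1.05, 1.05, 1.01 and 0.959.

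**Figure D1:**
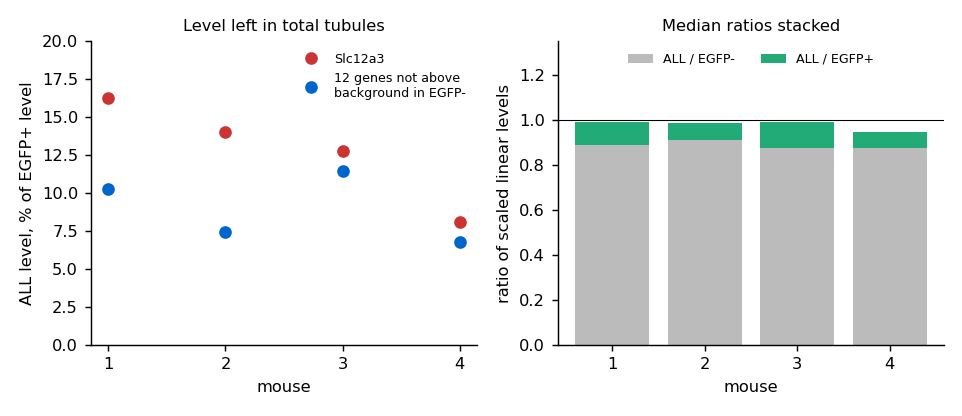
Left, the level in ALL as a percentage of the level in EGFP+ in each mouse, for Slc12a3 (red) and for the median of the 12 genes not above background in EGFP- (blue). Right, the median ratio ALL/EGFP- of 418 genes not above background in EGFP+ (grey) with the median ratio ALL/EGFP+ of the 12 genes stacked on it (green). The stacked ratios lie between 0.945 and 0.993, and Slc12a3 lies above the 12 genes in every mouse. With the normexp background, not drawn, the median difference of the genes not above background in EGFP- was smaller than that of Slc12a3.

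Of 17071 genes tested, 10791 (63.2%) differed between EGFP+ and ALL at an adjusted p under 0.05 in limma with the mouse as a block. In EGFP+, 5946 (34.8%) were higher and 4845 (28.4%) were lower. Centring the arrays on their median instead gave 7447 higher and 3946 lower, so 65.4% of the calls were higher against 55.1%. That scaling moved the median difference of all genes from 0.09 to 0.29, and the differences below are to be read against these medians.

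Counted next are 14638 genes measured well above background in both fractions (3 or more of the 4 arrays in each). Their mean excess over the 4 mice ended below 16-fold and their mean deficit did not. Of these, 1774 were at least 2-fold higher in EGFP+ and 1968 at least 2-fold lower. At 8-fold the counts were 101 higher and 687 lower. At 16-fold they were 0 higher and 427 lower, and at 32-fold 0 and 217. The largest mean excess was 14.3-fold, for Sox9, and the largest mean deficit was 91.1-fold, for Ptpro. In single mice the largest excess of any of these genes was 3.95, 4.15, 6.03 and 5.86 (log2, mice 1 to 4). It passed 16-fold in mice 2 to 4. With the normexp background Sox9 was at 8.62-fold and Ptpro at 32.8-fold, and the extremes were Pvalb, 10.7-fold higher, and Acsm1, 48.7-fold lower. Outside the 14638, Adamtsl3, a secreted matrix protein, had the largest difference tested, 4.27 ± 0.27, or 19.3-fold. It was well above background on 1 of 4 ALL arrays and 0 of 4 EGFP- arrays, so that fold rests in 3 mice on a signal not above background.

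**Figure D2:**
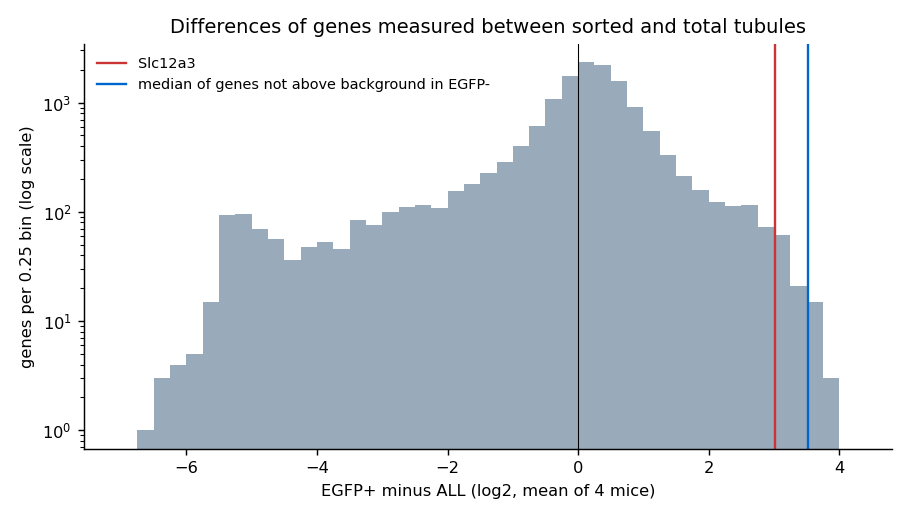
Number of genes (log axis) by EGFP+ minus ALL (mean of 4 mice) in bins of 0.25 log2 units, for the 14638 genes well above background in both fractions. The right edge ends at 3.84, beyond the lines for Slc12a3 (3.01, red) and for the genes not above background in EGFP- (blue), and the left tail reaches -6.51.

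The 12 largest excesses named by rule, among genes well above background on 3 or more arrays of both fractions, included Sox9, Ank2, Grin3a, Hmgcll1 and Capn6 of the second reference set. Sox9, a transcription factor of the SOX family (probe at mm8 chr11:112601784-112601843), stood at 1.62, 1.21, 1.67 and 1.36 in EGFP+ and at -1.99, -2.60, -1.84 and -3.07 in ALL. The fractions lay far apart in every mouse, and the difference was 3.84 ± 0.16 (SE, n = 4 mice; limma adjusted p = 1.1e-07). Ank2, ankyrin B, an adaptor that holds membrane transporters to the cytoskeleton, was at 0.89, 0.83, 0.62 and 0.72 in EGFP+ and at -2.78, -3.32, -2.56 and -3.52 in ALL. Its difference was 3.81 ± 0.19. Grin3a, an NMDA receptor subunit, differed by 3.75 ± 0.23, and Hmgcll1, an enzyme that cleaves HMG-CoA, by 3.73 ± 0.23. Neither gene's fractions overlapped.

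Trpm6, the magnesium channel of the apical membrane, was at 2.94, 2.84, 2.84 and 3.11 in EGFP+ and at -0.39, -0.78, -0.70 and -1.35 in ALL. The sorted tubules were alike, the totals were all lower, and the difference was 3.74 ± 0.29, or 13.3-fold (limma adjusted p = 4.1e-06). The transcription factor genes Sall3 and Prox1 followed at 3.72 ± 0.22 and 3.70 ± 0.21. Lrrn1, a leucine-rich repeat membrane protein, differed by 3.63 ± 0.28. Cdh3, P-cadherin, differed by 3.62 ± 0.22, Spag6l, a protein of the ciliary axoneme, by 3.60 ± 0.22, Capn6, a calpain family member, by 3.54 ± 0.27, and Dnah11, a dynein heavy chain of motile cilia, by 3.54 ± 0.27. All 12 were higher in EGFP+ than in ALL in 4 of 4 mice, which the rule that named them required. Where a further probe of Sox9, Sall3, Prox1 or Trpm6 was tested, it gave an excess between 3.61 and 3.94. The Prox1 probe at 3.94 was well above background on 0 of 4 ALL arrays, so the size of its excess was not measured. Probes of Prox1 and Trpm6 at 3.93 were so on 2 of 4.

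**Figure D3:**
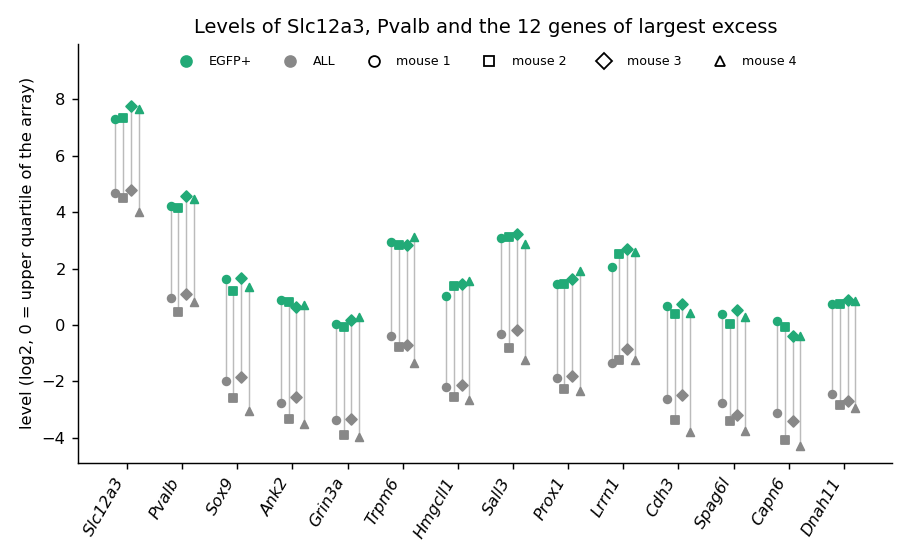
Level (log2, 0 at the array's upper quartile) in EGFP+ (green) and ALL (grey) of each mouse for Slc12a3, Pvalb and the 12 genes of largest excess, with a line joining the fractions of a mouse. For every gene drawn, all 4 EGFP+ points lie above all 4 ALL points, and levels are to be compared within a gene only.

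Set against the Slc12a3 fold, 97 other genes had at least as large an excess, and 320 with Slc12a3 itself (2.19% of the 14638) had an excess no more than 1.5-fold below it. Sim1 lay just inside at 5.38-fold and Clec1b just outside at 5.37-fold. Of the 320, 271 carried a gene name and not only a clone number, 207 were still well above background on all 4 EGFP- arrays, and 42 were so on none by any probe. In 39 of them the difference exceeded that of Slc12a3 in 4 of 4 mice.

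Each gene's difference was also tested against that of Slc12a3. In limma's moderated fit 16587 genes (97.2%) had a smaller excess and 13 (0.0762%) a larger one. Subtracting Slc12a3 puts the same error into every gene, which the moderation then takes as well known. The moderated fit thus had 101817 degrees of freedom (median over genes), though only 4 mice were sampled. With each gene's own residual spread, an alternative chosen after seeing the data, 16518 (96.8%) were smaller and 7 (0.041%) larger. Of the 13, 6 were well above background on 3 or 4 ALL arrays, 4 on 1 or 2 and 3 on none, and of the 7 these numbers were 5, 1 and 1. Where no ALL array was above background the size of the excess was not measured. Among the other 319 of the 320 genes, all measured in both fractions, the moderated fit found 6 larger than Slc12a3, 0 smaller and 313 past neither threshold, and the own spread found 5 larger and 7 smaller.

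The genes above Slc12a3 with both spreads included Sox9, Ank2, Grin3a and Hmgcll1. The margin of Sox9 was 0.83, with a 95% confidence interval of 0.01 to 1.64 by its own spread (adjusted p = 0.0499) and 0.12 to 1.53 by the moderated one (limma adjusted p = 0.023). The margin of Hmgcll1 was 0.72, with an interval of 0.22 to 1.22 by its own spread (adjusted p = 0.0127). Because most genes had a smaller excess, the adjustment changed these values little. By the own spread the unadjusted p was 0.0483 for Sox9 and 0.0120 for Hmgcll1, and 7 genes were larger with or without adjustment. The calls of a larger excess are therefore hardly corrected for the number of genes tested. Trpm6 and Sall3 passed only with the moderated spread, and the interval of Trpm6 by its own spread ran from -0.32 to 1.77. That spread includes the EGFP- arrays, where Trpm6 had an SD of 0.82 and was well above background on 2 of 4. In EGFP+ minus ALL, Trpm6 differed by 3.33, 3.61, 3.55 and 4.46 in mice 1 to 4, and Slc12a3 by 2.62, 2.83, 2.97 and 3.62. The part of the EGFP- arrays in the interval was not tested. Leaving out 1 mouse changed the moderated count from 13 to 5 without mouse 1, 7 without mouse 2, 4 without mouse 3 and 8 without mouse 4, and the normexp background gave 0.

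Slc12a3 was the largest excess among the brightest probes. Of 198 genes at a level of 6 or more in EGFP+, 10 were within the 320 and none exceeded its 3.01. Among the 2871 genes at levels from 2 to 4 the largest excess was 3.74 (Trpm6), and among the 1009 from 4 to 6 it was 3.53 (Pvalb). The Slc12a3 probe read between 234420 and 331279 intensity units in EGFP+ and was saturated on no array. The part of probe brightness in the smaller Slc12a3 fold was not tested.

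Genes of DCT salt transport and its control rose in EGFP+ for the most part: 11 of 17 were higher, 1 was lower and 5 did not pass the test, with a median difference of 2.12 against 0.09 for all genes tested. Over all genes tested 34.8% were higher and 28.4% lower. Counts of this list and of every list below are to be read beside these shares. Of the 17, 7 were within the 320. Klhl3, the ubiquitin ligase adaptor for WNK kinases, was at 3.67, 3.11, 3.43 and 3.49 in EGFP+ and at 0.63, 0.09, 0.37 and -0.09 in ALL. Its fractions did not overlap, its difference was 3.17 ± 0.17, and its margin to Slc12a3 was 0.16. Stk39, the kinase SPAK, was at 3.54, 3.43, 3.61 and 3.26 against 0.80, 0.65, 0.83 and 0.15, a difference of 2.85 ± 0.11. Wnk1 differed by 2.67 ± 0.16 and Wnk4 by 2.35 ± 0.11. Of 6 tested Wnk1 probes, 5 gave between 2.45 and 3.39 and the other gave -1.17.

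Kcnj10, the basolateral potassium channel Kir4.1, was at 5.88, 5.85, 5.97 and 5.83 in EGFP+ and at 3.49, 3.05, 3.21 and 2.70 in ALL, a difference of 2.77 ± 0.14. Ppp1r1a, protein phosphatase inhibitor 1, differed by 2.63 ± 0.11, and Bsnd, the chloride channel subunit barttin, by 2.63 ± 0.22. The sodium pump subunit Atp1b1 rose by 0.94 ± 0.14, with the ALL value of mouse 2 left out as an outlier spot. Oxsr1, Cul3, Nedd4l and Kcnj16 lay between 0.18 and 0.32 and did not pass the test. Sgk1, the aldosterone-induced kinase, fell: it was at 2.32, 1.74, 2.80 and 2.07 in EGFP+ and at 4.87, 4.05, 4.70 and 3.66 in ALL. The sorted tubules were below the totals in every mouse, by 4.25-fold.

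Of 10 tested genes of magnesium handling, 8 were higher, 1 was lower and 1 did not pass, with a median of 1.95. Pvalb, the calcium buffer parvalbumin, was at 4.23, 4.15, 4.57 and 4.49 in EGFP+ and at 0.97, 0.45, 1.11 and 0.81 in ALL, a gap of 3.53 ± 0.34, or 11.5-fold. Trpm6 and Pvalb were the list's members within the 320. Cnnm2, a basolateral magnesium transport protein, followed at 2.37 ± 0.16, the carrier Slc41a3 at 2.36 ± 0.16, the channel kinase Trpm7 at 2.02 ± 0.13 and Egf, a hormone that acts on magnesium uptake, at 1.89 ± 0.19. Pcbd1, an enzyme of tetrahydrobiopterin recycling, was at 0.08 ± 0.18 and did not pass.

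Genes of transcellular calcium transport, which belong to the late DCT and connecting tubule, rose for the most part. Of 9 tested, 8 were higher and 1 was lower, with a median of 1.27. The entry channel genes Trpv6 and Trpv5 differed by 2.71 ± 0.14 and 2.23 ± 0.13, and the sodium-calcium exchanger Slc8a1 by 2.58 ± 0.11. Calb1, the buffer calbindin-D28K, was at 7.58, 7.91, 7.90 and 7.85 in EGFP+ and at 6.16, 6.54, 6.29 and 5.86 in ALL. Its fractions did not overlap, but its difference of 1.59 ± 0.12 was 3.02-fold only, with 1 EGFP+ array saturated. S100g (1.01 ± 0.17), Vdr (1.01 ± 0.13) and Atp2b1 (0.51 ± 0.10) rose less, and the parathyroid hormone receptor Pth1r was lower by 0.87 on the log2 scale.

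Transcription factors split: of 25 tested, 14 were higher and 10 lower, and Foxi1 (-0.26 ± 0.22) did not pass. Of these, 9 were within the 320. Besides Sox9, Sall3 and Prox1 they were Batf3 at 3.21 ± 0.11, Esrrb at 3.02 ± 0.13, Tfap2b at 3.01 ± 0.18, Emx1 at 2.68 ± 0.10, Grhl2 at 2.56 ± 0.15 and Lhx1 at 2.51 ± 0.09. Esrrb, an orphan nuclear receptor, was at 2.56, 2.35, 2.96 and 2.67 in EGFP+ and at -0.16, -0.55, -0.26 and -0.59 in ALL, so its groups lay apart. Wt1 (-6.79 ± 0.31), the podocyte factor, and Hnf4a (-5.15 ± 0.23), a proximal tubule factor, were lowest. The Irx1, Irx2 and Irx3 genes were lower by between 1.96 and 2.91, and Pax8, found along the nephron, was lower by 0.92.

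Markers of the thick ascending limb, which lies just upstream, moved with the DCT genes. Of 14 tested, 10 were higher, 3 were lower and 1 did not pass, with a median of 1.44. The part of that segment in the sorted fraction was not tested. Its defining transporter Slc12a1 (NKCC2) was at 4.96, 4.80, 4.86 and 4.55 in EGFP+ and at 3.99, 4.14, 4.18 and 3.58 in ALL, a difference of 0.82 ± 0.13 that was 1.77-fold. Umod, uromodulin, was higher by 1.39 ± 0.19 in the 3 mice with a value on both arrays, since the total of mouse 2 was left out as an outlier spot. Casr, the calcium-sensing receptor (2.86 ± 0.29), Enox1 (2.60 ± 0.29) and Sostdc1 (2.56 ± 0.11) were within the 320. Cldn10, a claudin of the ascending limb and proximal tubule, fell, from between 4.07 and 5.02 in ALL to between -1.13 and 0.39 in EGFP+.

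Principal cell markers were divided. The water channel genes Aqp2 (-3.38 ± 0.16) and Aqp3 (-3.44 ± 0.18) and the ion transport regulator Fxyd4 (-4.18 ± 0.18) fell, as 7 of 11 did, and Hsd11b2, which guards the mineralocorticoid receptor, was at least 4.57-fold lower, being not well above background in EGFP+. The 3 subunit genes of the epithelial sodium channel were higher: Scnn1a by 2.38 ± 0.09, Scnn1b by 0.98 ± 0.21 and Scnn1g by 0.52 ± 0.16. The list's median was -2.63, or -1.99 with the 2 genes not above background in EGFP+ at their bounds. Of 18 intercalated cell markers, 5 were higher, 8 lower and 5 past neither way, with a median of -0.29, beside 34.8% higher and 28.4% lower over all genes. Slc26a4, the exchanger pendrin, was at 3.46, 3.72, 3.79 and 3.65 in EGFP+ and at 4.96, 5.09, 4.83 and 4.47 in ALL, a fall of 2.26-fold. Atp6v1b1, a proton pump subunit, was higher by 1.59 ± 0.22.

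**Figure D4:**
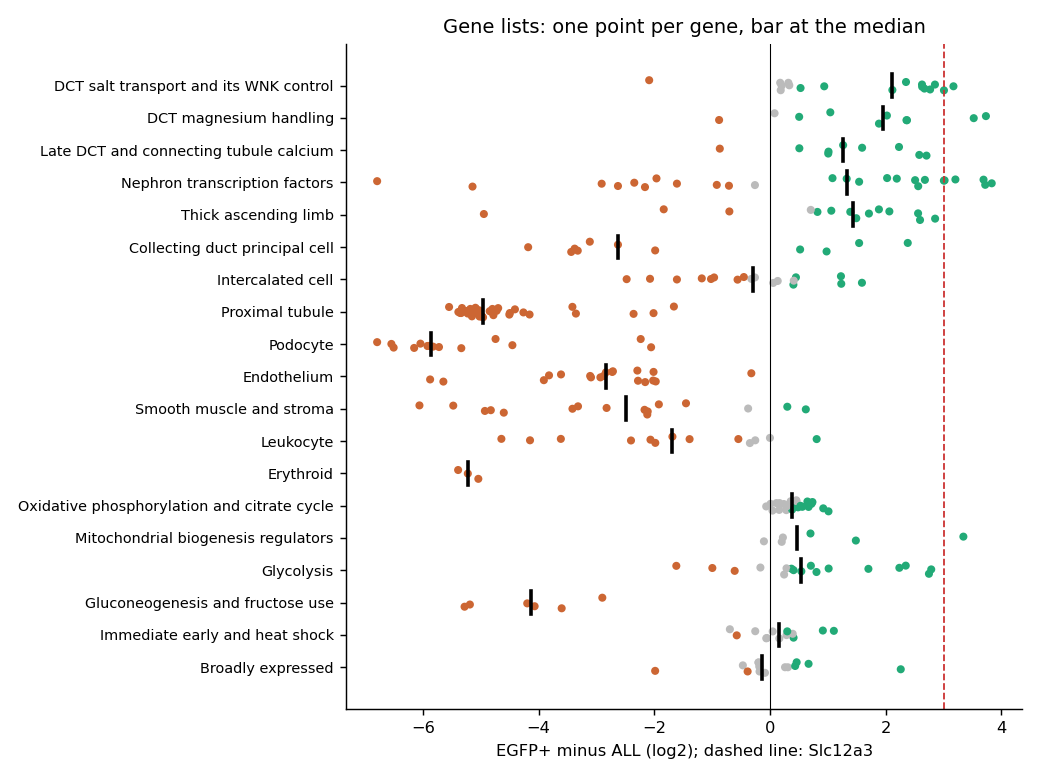
EGFP+ minus ALL (log2) for each tested gene of 19 lists, green where higher, orange where lower and grey where the test was not passed, with a black bar at each list's median. The DCT salt and magnesium lists extend past the dashed Slc12a3 line at 3.01, to 3.17 and 3.74, the calcium list ends below it at 2.71, and all 34 proximal tubule and all 14 podocyte genes lie below 0.

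Genes of the other kidney cell types were mostly lower in EGFP+ than in ALL. All 34 proximal tubule genes tested were lower, with a median of -4.97, and so were all 14 podocyte genes (median -5.87), all 19 endothelial genes (median -2.84) and all 3 erythroid genes (median -5.23). Linear levels were summed over 20 proximal tubule genes with values on all 8 arrays and well above background on all 4 ALL arrays. By this sum, EGFP+ held 5.05%, 9.70%, 4.88% and 6.29% of the level in the total of mice 1 to 4. The same sum was 3.79%, 4.45%, 3.15% and 4.67% for podocyte genes and 8.65%, 12.5%, 8.77% and 10.7% for endothelial genes. The brightest probes weigh most in such sums. The median over single genes was lower for proximal tubule (2.57%, 5.42%, 2.46% and 3.84%) and podocyte genes (2.07%, 3.27%, 1.41% and 1.32%). For endothelial genes it was higher, at 11.9%, 16.7%, 10.7% and 14.4%. Mouse 2 had the highest proximal tubule and endothelial remainder. Slc7a9, a proximal amino acid transporter gene, was at -0.45, 0.46, -0.53 and -0.27 in EGFP+ and at 4.95, 4.88, 4.86 and 4.90 in ALL, a fall of 34.2-fold.

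Smooth muscle and stromal genes were lower in 13 of 16, higher in 2 and past neither way in 1. Acta2, smooth muscle actin, was at 0.30 ± 0.10 by its brightest probe but at -1.91 by the mean of its probes, so its direction was not settled. Leukocyte genes were lower in 9 of 13 and higher in 1, Fcer1g at 0.81 ± 0.17. Their medians were -2.50 and -1.69, the latter -0.55 with the 3 genes not above background in EGFP+ at their bounds. Cd68, a macrophage gene, was at 0.00 ± 0.66.

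The 12 largest deficits under the same detection rule, which leaves out Wt1 (well above background on 2 of 4 EGFP+ arrays), were led by Ptpro (probe at mm8 chr6:137427195-137427254). It was at -2.02, -2.83, -2.66 and -4.84 in EGFP+ and between 2.99 and 3.99 in ALL. The fractions lay far apart, and the difference of -6.51 ± 0.33 left 1.10% of the total's level (limma adjusted p = 2.7e-07). Nphs1, nephrin of the podocyte slit diaphragm, fell by 71.2-fold and Synpo, an actin-binding podocyte protein, by 60.7-fold. Itga8, an integrin of mesangial cells, fell by 66.9-fold, Plat, tissue plasminogen activator, by 58.8-fold, and Gja5, the gap junction protein connexin 40, by 70.4-fold. Further probes of Gja5 gave between -0.98 and -1.44, a second Synpo probe gave -0.73 and 1 of 3 Itga8 probes gave -2.38, so the size of these falls depended on the probe. Shisa3 (-6.37 ± 0.26), Sfrp2 (-6.35 ± 0.21), Myom2 (-6.29 ± 0.23), Chst1 (-6.21 ± 0.45), Ablim3 (-5.98 ± 0.27) and Adamts5 (-5.80 ± 0.23) completed the set. Ptpro, Nphs1, Chst1 and Ablim3 were well above background on 3 of 4 EGFP+ arrays and the others on all 4. Mouse 4 had the lowest EGFP+ level for each of the 12.

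**Figure D5:**
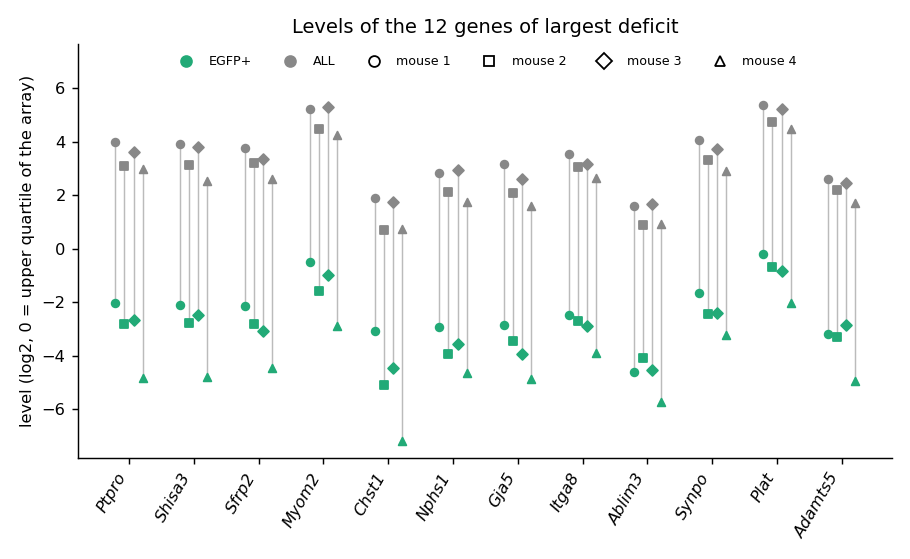
Level (log2, 0 at the array's upper quartile) in EGFP+ (green) and ALL (grey) of each mouse for the 12 genes of largest deficit, with a line joining the fractions of a mouse. All EGFP+ points lie below all ALL points of the same gene, and the triangles of mouse 4 are the lowest EGFP+ points.

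Where no array of 1 fraction read well above background, only a bound was available. The genes dim in ALL named here passed the filter on dim probes through EGFP+ alone, so passing the limma threshold is no support for their excess. The bound is the mean of the brighter fraction against, per array, the higher of the gene's own signal and the lowest signal well above background. With ALL as the dim side, Lgi3 was at least 6.47-fold higher in EGFP+, and the bounds of Mlana, Tarm1, Epha6 and Lhfpl1 were at least 5.80-fold, 5.66-fold, 5.04-fold and 4.50-fold. With EGFP+ as the dim side, Rarres1 was at least 35.9-fold lower. The bounds of Papss2, Ggt5 and Nebl were at least 33.2-fold, 32.7-fold and 31.5-fold, and that of Igh, an immunoglobulin heavy chain probe of a multigene family, at least 30.7-fold.

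Among energy metabolism genes most differences were small, with exceptions. Of 27 genes of oxidative phosphorylation and the citrate cycle, 14 were higher, 0 lower and 13 did not pass, with a median of 0.38, and Idh3a, a citrate cycle dehydrogenase subunit, was the highest at 1.01 ± 0.10. These differences are to be set beside the shift of the median of all genes from 0.09 to 0.29 under median centring. Perm1, a regulator of mitochondrial genes in muscle, stood apart at 1.79, 1.54, 1.70 and 1.36 in EGFP+ and -1.54, -1.88, -1.56 and -2.02 in ALL. Its difference of 3.35 ± 0.12 was larger than that of Slc12a3, by a margin of 0.34 that did not pass the test. Ppargc1a, the coactivator PGC-1α, rose by 1.49 ± 0.13, and Esrra, Nrf1 and Tfam lay between -0.10 and 0.22 and did not pass.

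Glycolytic genes were higher in 11 of 17, lower in 3 and past neither way in 3 (median 0.54). Pfkp, a phosphofructokinase, was at 3.14, 3.05, 3.14 and 3.08 in EGFP+ and at 0.64, 0.22, 0.63 and -0.07 in ALL. The fractions did not overlap, and the difference of 2.75 ± 0.13 was within the 320. Pkm, pyruvate kinase M, was also within them at 2.79 ± 0.18, with Hk1, hexokinase 1, below at 2.35 ± 0.12. Ldha, a lactate dehydrogenase subunit, was lower by 1.99-fold, with the ALL value of mouse 2 left out as an outlier spot, and Gapdh was lower by 0.61 on the log2 scale. All 6 tested genes of gluconeogenesis and fructose use, pathways of the proximal tubule, fell, with a median of -4.13, among them G6pc (-5.19 ± 0.18) and the fructose carrier Slc2a5 (-5.28 ± 0.20). Of 14 broadly expressed genes, 4 were higher, 2 lower and 8 past neither way, at a median of -0.13. Among 13 genes of the immediate early and heat shock responses, 4 were higher, 1 was lower and 8 did not pass (median 0.16), again beside 34.8% and 28.4% of all genes. Fos was at 1.11 ± 0.16 and Hspa1a at 0.92 ± 0.21.

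The 3 promoters shown above were picked for holding the AP-2 motif. Of the 12 genes of largest excess, 8 matched a RefSeq promoter, and 1 of these, Trpm6, held it. Each promoter shown had 1 match, starting 73, 68 and 81 bases before the gene start in Slc12a3, Trpm6 and Pvalb. Over the 320 genes, 202 matched a RefSeq promoter by symbol, with 259 windows of 250 bases. The motif, read on both strands, was in 54 of these windows (20.8%), against 19.8% of the windows of all matched genes tested and 13.7% of all windows. The SOX motif ACAATGG was in 11 windows (4.25%), against 1.82% and 3.02%. The nuclear receptor half-site AAGGTCA was in 10 (3.86%), against 3.11% and 4.08%. These shares describe letters in a window and were not tested.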

How the data were processed

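Total RNA of EGFP+, ALL and EGFP- tubules was labelled with Cy3 in a 1-colour linear amplification, per the labels' protocols, and read on Agilent design 014868 with Feature Extraction 9.5.3.1, per the file headers. The authors deposited these scanner files, whose processed signal is an intensity on a linear scale, already background-subtracted. The authors' deposited value table was not used for results: compared with the scanner values, each of its columns matched the array of another fraction of the same mouse, so the scanner files' labels were followed. The ground for following them was the level of Slc12a3, higher on the arrays they name EGFP+.

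Intensities were floored at 1, log2-transformed, averaged over a probe's spots without outlier spots and control spots, and centred on each array's 75th percentile. Probes were kept that rose well above background on 4 or more of the 12 arrays, and a gene was measured by its tested probe of highest mean. Of the array's probes, 24488 were named through an accession, 6240 through a current and 2385 through an older symbol, and 8061 kept the file's name. limma 3.58.1 in R 4.3.3 was fitted over all 12 arrays, with ALL as the reference and the mouse as a block, and Benjamini-Hochberg adjusted p under 0.05 was the threshold. 399 genes lacked a value on an EGFP+ or ALL array and were fitted without it. The fractions came from the same mice: deviations of EGFP+ and ALL from their group means correlated at 0.387, 0.324, 0.317 and 0.304 within mice 1 to 4, higher than with any other mouse. The fit was checked on simulated data.

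Named genes were the 12 largest excesses and 12 largest deficits past the threshold with the same sign in 4 of 4 mice, detected above background in each fraction on 3 or more arrays and not named by a clone or locus number alone, the 5 largest bounds each way, the given markers and the members of the gene lists. Some list members are counted but not reported by name here. The comparison, its members and the lists were chosen with earlier results of these data known. Alternatives were median centring, quantile normalization, normexp background (offset 50), no mouse block, 8 arrays only, slide as a further block, other filters, the mean of probes, kept outlier spots, and each mouse left out. Differences by sex were tested on the 4 per-mouse differences.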

Additional observations from a re-analysis of the deposited data

Results flagged for a closer look

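The median difference of the principal cell list was -3.37 in mouse 1 against a median of -2.01 in the other 3 mice. The gap to the nearest value was over Dixon's 95% critical share of the range for 4 values. Of 59 values examined in this way this was the only one past the limit, and chance alone passes about 1 in 20.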

How the results depend on the processing

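The Slc12a3 difference kept its direction and its side of the threshold under every alternative (2.72 under quantile normalization to 3.21 under median centring). The 35 named genes kept their direction in all of theirs, and 5 (Mlana, Tarm1, Lhfpl1, Epha6 and Lgi3, all not above background in ALL) missed the threshold under the normexp background. That background gave 3471 genes higher and 2716 lower, 137 genes within 1.5-fold of the Slc12a3 fold, a median of 2.43 for the genes not above background in EGFP- in place of 3.53, and 0 genes with more excess than Slc12a3. It also moved list medians toward 0: principal cell from -2.63 to -0.73, leukocyte from -1.69 to -0.35, podocyte from -5.87 to -3.73, endothelium from -2.84 to -2.03, smooth muscle and stroma from -2.50 to -1.36, erythroid from -5.23 to -4.02 and thick ascending limb from 1.44 to 0.99. The normexp median of 2.43 lay below the Slc12a3 difference, which was 2.72 or more under every alternative, so the order of these references was reversed there. Quantile normalization gave 481 genes within 1.5-fold of the Slc12a3 fold and 42 with more excess. The 13 genes with more excess were 8 without the mouse as a replicate block, 6 with slide and mouse as blocks, 3 without a filter on dim probes, 7 with all 8 arrays above background, 7 by each gene's own spread, and 4 to 8 with 1 mouse left out. Genes with less excess than Slc12a3 numbered 26997 without the filter, which tested more genes. Without the block, 5176 genes were higher and 4255 lower, and it moved no other count by over 1.5 times. The median of the broadly expressed list, -0.13, became 0.077 under median centring, 0.014 under quantile normalization, 0.13 with the mean of probes, 0.00061 with outlier spots kept and -0.14 to 0.0038 with 1 mouse left out (positive only without replicate 4). Among other list genes, 3458 values kept side and direction, 179 lost and 56 gained the threshold, and 53 changed sign. Of 6106 genes with several probes, 78 had probes called in opposite directions. The cause of these changes was not tested.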

Other observations

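Other genes no more than 1.5-fold below the Slc12a3 fold, chosen here after their values were seen, included receptor genes. The beta-1 adrenergic receptor Adrb1 differed by 3.41 ± 0.16 (EGFP+ minus ALL, log2, SE, n = 4 mice), the prostaglandin F receptor Ptgfr by 3.37 ± 0.19 and the adenosine receptor Adora2b by 3.22 ± 0.14. The growth factor Igf1 differed by 3.28 ± 0.27, the amine oxidase Maob by 3.35 ± 0.22, the potassium channel Kcnn2 by 3.30 ± 0.19 and the monocarboxylate carrier Slc16a7 by 2.99 ± 0.15. The Hox genes there were Hoxd8 (2.81), Hoxd10 (2.81), Hoxd3 (2.80), Hoxd9 (2.71), Hoxb8 (2.68) and Hoxb3 (2.44). Each of these was higher in EGFP+ in 4 of 4 mice, which their choice by a large mean excess made likely, so it is no separate support.

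The difference between fractions passed a test for dependence on sex in 0 of 16672 genes at an adjusted p under 0.05 in limma (smallest adjusted p = 0.0682, 2481 with an unadjusted p under 0.05, 2 males against 2 females). Median centring gave 5 genes and quantile normalization 4. Among them, chosen after its values were seen, Ugt8a was well above background on all 12 arrays and differed by 0.18 and 0.26 in the females and by -4.15 and -4.27 in the males. Its mean level in ALL was -4.16 in females and 1.89 in males.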
